A study of Rattus norvegicus with 48 samples.

Results

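Circulating miRNAs were followed in plasma of the 6 rats that regenerated a calvaria (skull roof) defect strongly. All 24 samples of these rats were chosen by the animal in the label, out of 48 samples of 12 rats in the series. They were taken from the tail vein before surgery (baseline, BL) and at weeks 1, 4 and 8 of healing (W1, W4 and W8), with 1 sample of each rat at each time point, from rats 2, 5, 17, 21, 23 and 29. The rats were male and 12 weeks old at surgery, so their age rose with the week of sampling. Their strain is given as Wistar in one place of the study and as Sprague-Dawley in another. Strong regenerators were the best healers by microCT bone volume at the end of the study, and came from every treatment arm: an empty defect, a collagen hydroxyapatite scaffold alone, the scaffold with a plasmid for BMP2 and miR-590-5p, and the scaffold with vesicles of Wharton's jelly stromal cells. The 6 weak regenerators, the worst healers, enter 1 comparison at the end. The labels used here do not tie a rat to its treatment, and no rat without surgery was sampled, so the time elapsed and the surgery cannot be told apart. The question was how plasma miRNAs of strong regenerators at W1 and W4 together differed from BL of the same rats, and how the difference ran on over the weeks.

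MiRNAs are short RNAs that pair with messenger RNAs mainly through their seed (bases 2 to 8 from the 5′ end) and lower protein output. Plasma holds miRNAs released by many tissues, in vesicles, in protein complexes and from blood cells that break open, so that a few tissues can be read from miRNAs they make in excess: miR-451 for red cells, miR-122 for hepatocytes, miR-133 for muscle. In the skeleton, miR-140 is known for its part in cartilage, where its host gene is expressed, and miR-455 is also expressed there. The miR-322 cluster on the X chromosome (the rat form of the miR-424 and miR-503 cluster) is known for muscle differentiation and cell cycle exit. Levels are given as reads per 1000000 miRNA reads (RPM), a share of the library, so fewer cells of a type and less RNA per cell cannot be told apart.

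The sequences below belong to the lower miRNAs that the results turn on and to relatives with the same seed, and are taken from RefSeq (build GRCr8), 5′ to 3′, with the seed in capitals. The first 5 are transcribed from the miR-322 cluster, whose 12 mature miRNAs span chrX:137720952-137726219 on the minus strand (5268 bases).
miR-322-5p: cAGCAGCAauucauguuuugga
miR-322-3p: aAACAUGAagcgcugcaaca
miR-503-5p: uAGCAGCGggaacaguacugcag
miR-351-5p: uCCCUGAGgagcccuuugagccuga
miR-351-3p: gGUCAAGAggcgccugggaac
miR-125b-5p: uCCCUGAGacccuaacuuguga
miR-125a-5p: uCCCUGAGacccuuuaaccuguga
miR-195-5p: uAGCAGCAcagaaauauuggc
miR-16-5p: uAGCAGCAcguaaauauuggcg
miR-140-5p: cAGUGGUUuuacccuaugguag
miR-140-3p: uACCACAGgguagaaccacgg
miR-455-3p: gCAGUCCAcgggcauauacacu
miR-199a-3p: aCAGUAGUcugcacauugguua
miR-351-5p thus carries the seed of miR-125a-5p and miR-125b-5p, and miR-322-5p that of miR-195-5p and miR-16-5p. The mature miR-140-3p lies at chr19:52375353-52375373 on the plus strand, miR-455-3p at chr5:81704881-81704902 on the plus strand and miR-125b-5p at chr11:29732588-29732609 on the plus strand.

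The total miRNA count per library ranged from 433308 to 1586398 (median 746913). Reads of UniSp2, a synthetic RNA added at extraction, lay between 27.7 and 60.4 per 1000 miRNA reads at BL, W1 and W4 and between 91.1 and 144 at W8, so the W8 libraries stood apart from all others. From BL to the mean of W1 and W4, UniSp2 reads went from a mean of 33.0 to 43.7 per 1000, a difference of 10.7 ± 9.79 (SD, n = 6, exact sign-flip permutation test p = 0.0625, adjusted p = 0.1875 over 3 tests). The red cell measure log2(miR-451-5p / miR-23a-3p) was 2.13 at BL and 2.55 after, a difference of 0.42 ± 0.75 that was positive in 5 of 6 rats (exact p = 0.21875, adjusted p = 0.328). With at least 1 read, 462.8 miRNAs were detected on average at BL and 458.3 after, a difference of -4.50 ± 20.05 (exact p = 0.5625, the adjusted value being equal). The smallest p that 6 rats allow in these two-sided tests is 0.03125.

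**Figure D1:**
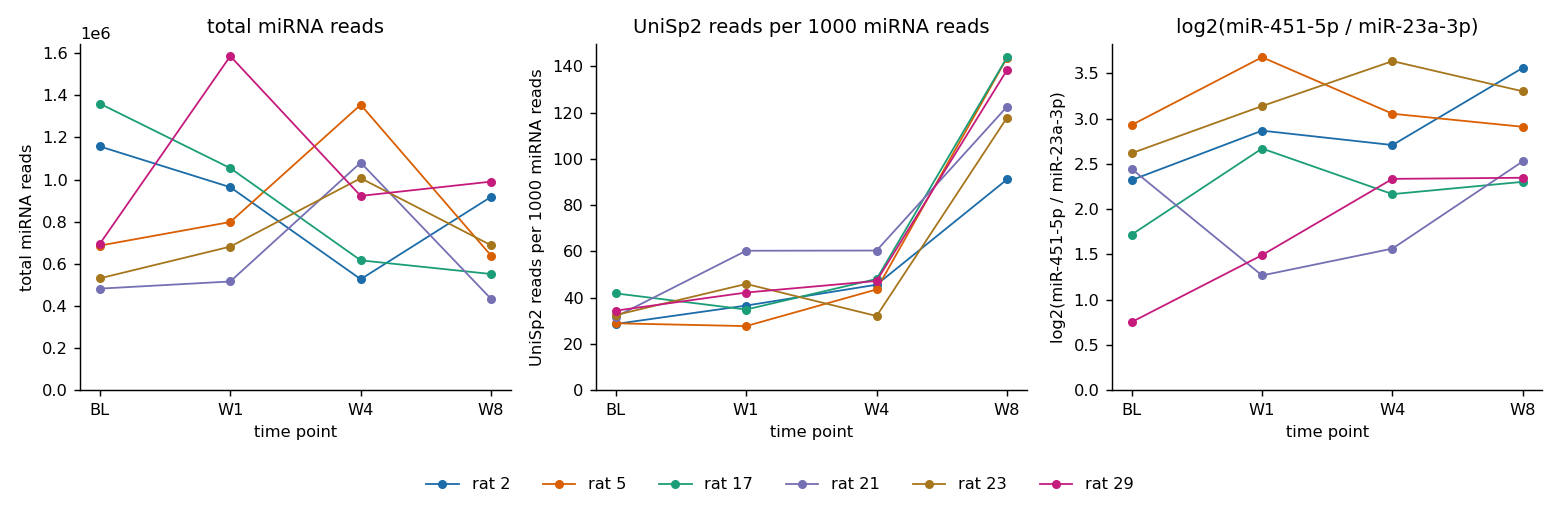
Total miRNA reads, UniSp2 reads per 1000 miRNA reads and the red cell measure log2(miR-451-5p / miR-23a-3p) in each of the 24 libraries by time point, with 1 line for each rat. All 6 libraries of W8 hold more UniSp2 reads (91.1 to 144 per 1000) than any library before (27.7 to 60.4).

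After surgery, all 11 tested miRNAs of the miR-322 cluster, all 4 of cartilage and 7 of 11 of mesenchymal tissue were lower in plasma than before it, and 4 of 7 of the liver were higher. These lists were chosen with earlier results of these data known, and the study had reported many of their members as changed at every week. The counts thus describe the lists and do not test them. Of 323 miRNAs tested in W1 and W4 together against BL, paired by rat, 50 passed an FDR of 0.05 in edgeR's quasi-likelihood test with Benjamini-Hochberg adjustment. Of these, 38 were lower, which is 11.8% of those tested, and 12 were higher, which is 3.72%. With library size in place of TMM the split was 47 lower and 3 higher, and with scaling to UniSp2 reads it was 136 lower and 3 higher. In 11 miRNAs, 3.41% of those tested, all 12 RPM values of W1 and W4 lay under all 6 values of BL. They were both arms of miR-503, both of miR-351 and both of miR-322, with miR-542-3p, miR-450b-3p, miR-455-5p, miR-149-5p and miR-140-3p. These were named for their lack of overlap, after their values were seen. In 0 miRNAs (0%) did all 12 values lie above BL. Of the 626 miRNAs fitted, before the filter on mean RPM, 109 had an unadjusted p under 0.05 in edgeR's test.

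**Figure D2:**
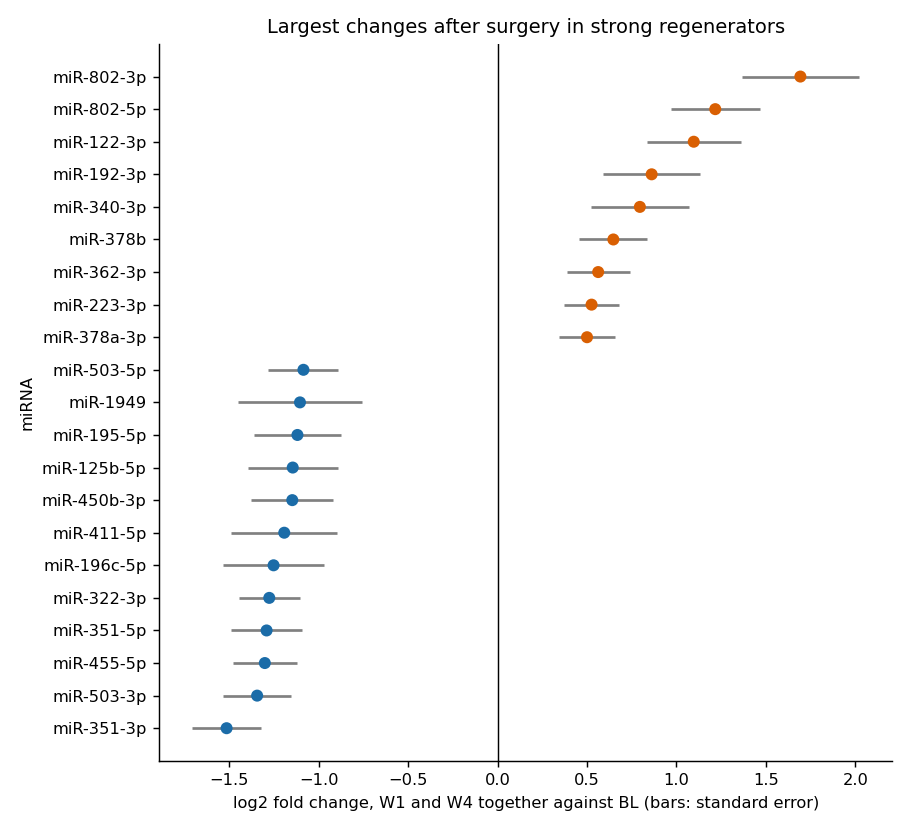
Log2 fold change of W1 and W4 together against BL, with its standard error, for the 12 largest decreases and the 9 increases that passed an FDR of 0.05, a mean of 10 RPM and a like sign in 5 or more of the 6 rats. Decreases run to -1.52 (miR-351-3p) and increases to 1.69 (miR-802-3p).

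The miR-322 cluster was lower as a whole. Of its 12 miRNAs, 11 were tested and all 11 fell, with log2 fold changes from -1.52 to -0.72 (median -1.09, beside a median of 0.03 over all tested miRNAs). miR-450a-3p, the remaining member, had at most 4 reads in a library and was not tested. miR-351-3p had a lowest, median and highest level of 199, 253 and 357 RPM at BL, 57.9, 81.7 and 180 RPM at W1 and 57.6, 80.0 and 115 RPM at W4. All 12 later values were under the baseline values, and rat 21 stood highest at both weeks. Its log2 fold change was -1.52 (SE 0.19, FDR 3.82e-08), with a fall in 6 of 6 rats.

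The other arm of that hairpin, miR-351-5p, fell as well, by 1.29 on the log2 scale (SE 0.20, FDR 1.31e-06). It had a lowest, median and highest level of 411, 584 and 995 RPM at BL, 157, 268 and 364 RPM at W1 and 126, 174 and 381 RPM at W4, with no overlap between BL and later. miR-322-3p, the most abundant member, stood between 2646 and 4370 RPM at BL (median 2978). At W1 it was between 772 and 1664 RPM (median 1315) and at W4 between 807 and 1462 RPM (median 1185). Every rat was thus lower after surgery than any rat before it, and the log2 fold change was -1.28 (SE 0.17, FDR 1.00e-07).

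miR-322-5p, known in humans as miR-424-5p and of the miR-16 family by its seed, was between 326 and 425 RPM at BL (median 381), between 119 and 234 RPM at W1 (median 198) and between 96.4 and 208 RPM at W4 (median 159). Its log2 fold change was -1.03 (SE 0.17, FDR 8.43e-06). miR-503-3p fell by 1.34 (SE 0.19, FDR 3.07e-07) on the log2 scale, from a median of 465 RPM at BL to 181 RPM at W1 and 170 RPM at W4. Its partner miR-503-5p, another relative of miR-16, fell by 1.09 (SE 0.20, FDR 4.03e-05), from 154 RPM to 83.7 RPM and 56.8 RPM. In both arms of miR-503 each later value was under each baseline value.

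The rest of the cluster was lower too. miR-450b-3p fell by 1.15 (SE 0.23, FDR 0.000147) on the log2 scale, from 49.5 to 76.0 RPM at BL to between 17.6 and 36.3 RPM at W1 and between 10.9 and 36.0 RPM at W4. For miR-542-3p, miR-542-5p, miR-450b-5p and miR-450a-5p the log2 fold changes were -0.95, -0.87, -0.91 and -0.72. Without rat 23 the last 2 did not pass, at -0.73 (FDR 0.109) for miR-450b-5p and -0.54 (FDR 0.146) for miR-450a-5p, and without rat 21 miR-450b-5p did not either (-0.76, FDR 0.0578). These 2 mature sequences differ by 1 mismatch, so reads can be shared between them.

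All 4 cartilage miRNAs fell, with a median log2 fold change of -0.95. miR-455-5p, made in cartilage from an intron of a collagen gene, was between 842 and 1318 RPM at BL (median 1105), between 241 and 532 RPM at W1 (median 433) and between 247 and 589 RPM at W4 (median 401). The groups did not overlap, and the log2 fold change was -1.30 (SE 0.18, FDR 1.69e-07). miR-140-3p was abundant in this plasma.

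Its lowest, median and highest levels were 77627, 98879 and 112237 RPM at BL, 47169, 57048 and 75472 RPM at W1 and 48203, 54474 and 75864 RPM at W4. Rat 21 had the lowest level at BL and the highest at W1 and W4, so that its own values hardly moved while those of the others dropped. The log2 fold change over the 6 rats was -0.62 (SE 0.14, FDR 0.000660). miR-140-5p fell by 0.98 (SE 0.19, FDR 0.000143) and miR-455-3p by 0.93 (SE 0.17) on the log2 scale, which makes both arms of both hairpins lower.

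**Figure D3:**
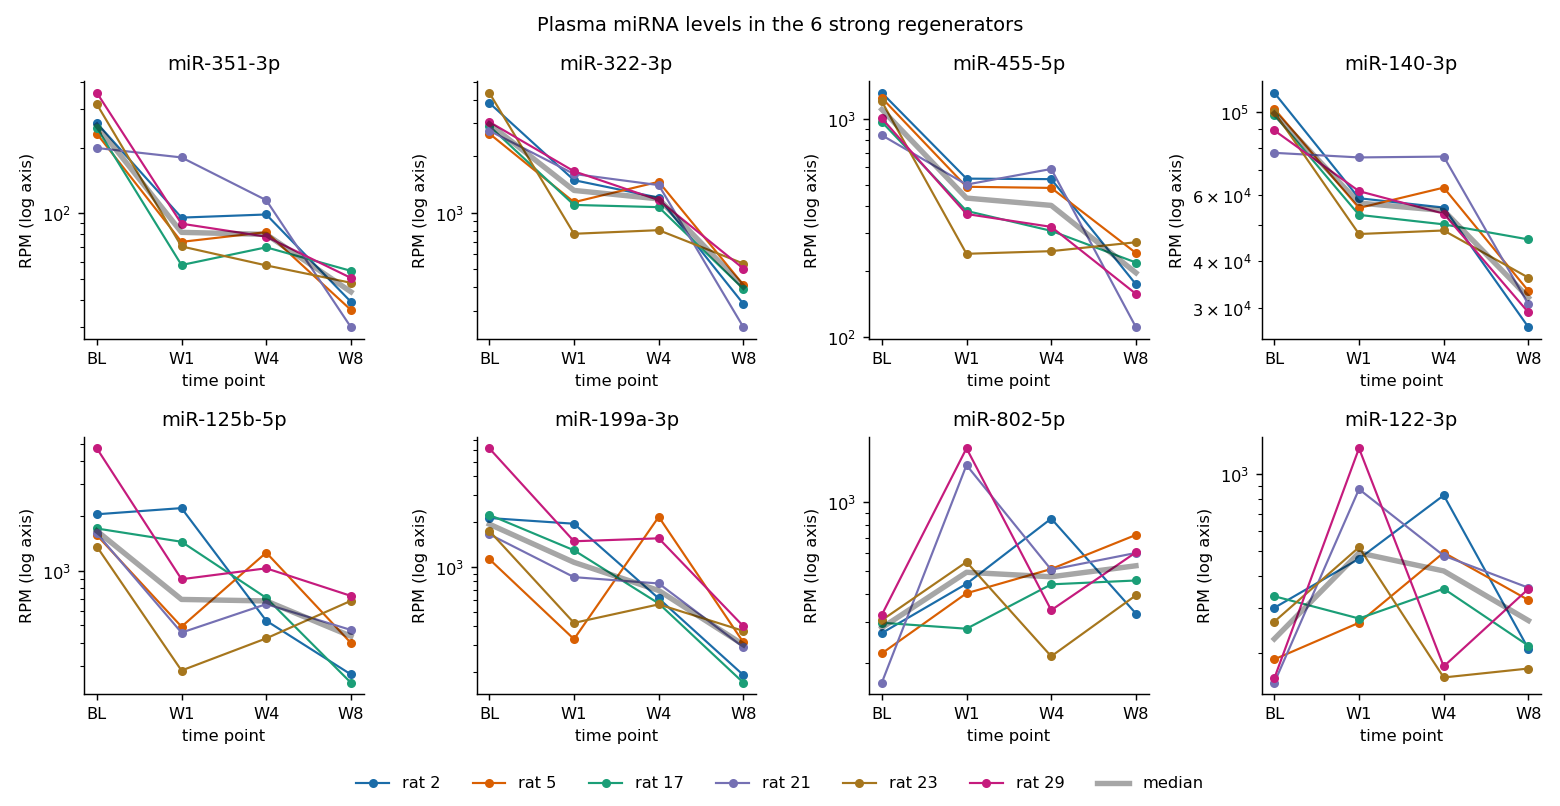
RPM (log axis) of 8 miRNAs at BL, W1, W4 and W8, with 1 line for each of the 6 rats and the median in grey. In miR-351-3p, miR-322-3p, miR-455-5p and miR-140-3p all later values are under all BL values, while rat 29 stands above the others at BL in miR-125b-5p (4706 RPM) and miR-199a-3p (6155 RPM), and rats 21 and 29 stand highest at W1 in miR-802-5p (1453 and 1720 RPM).

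In the mesenchymal list (miRNAs of fibroblasts, smooth muscle and bone-forming lineages), 7 of 11 tested members fell, with a median of -0.59. miR-199a-3p, of the pair that Dnm3os hosts with miR-214, was between 1124 and 6155 RPM at BL (median 1923), between 329 and 1935 RPM at W1 (median 1070) and between 561 and 2151 RPM at W4 (median 694). The groups overlapped, and rat 29 stood far above the others at BL. Its log2 fold change was -1.03 (SE 0.25, FDR 0.00206), and -0.85 (FDR 0.0342) without rat 29.

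miR-196a-5p, from a HOX gene cluster, fell by 1.01 (SE 0.23, FDR 0.00122) on the log2 scale, and miR-199a-5p by 0.88 (SE 0.21). miR-152-3p fell by 0.74 and miR-214-3p by 0.59. The smooth muscle pair miR-143-5p and miR-143-3p fell by 0.90 and 0.59, while miR-145-5p of the same transcript was at 0.14 (FDR 0.619). miR-214-3p did not pass without rat 23 (-0.49, FDR 0.155) or rat 29 (-0.51, FDR 0.117), and without rat 17 neither did miR-143-3p (-0.43, FDR 0.104) nor miR-143-5p (-0.70, FDR 0.0641).

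Of the miR-125 and miR-99 family, known from stem cells and blood formation, 5 of 10 members fell (median -0.51). miR-125b-5p was between 1356 and 4706 RPM at BL (median 1653), between 282 and 2206 RPM at W1 (median 693) and between 423 and 1255 RPM at W4 (median 680). Rat 2 was higher at W1 than at BL, whereas at W4 every rat lay under every baseline value. The log2 fold change was -1.15 (SE 0.25, FDR 0.000644), and -0.95 (FDR 0.0141) without rat 29.

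miR-125a-5p fell by 0.64, miR-99b-5p by 0.63, miR-125b-2-3p by 0.51 and miR-99a-5p by 0.45 on the log2 scale. These calls were near the threshold, and each was lost without some rats: without rat 23 the FDR was 0.0837 for miR-125a-5p, 0.146 for miR-99b-5p, 0.159 for miR-125b-2-3p and 0.166 for miR-99a-5p, and without rat 29 it was 0.0570 for miR-125a-5p, 0.247 for miR-99b-5p and 0.0724 for miR-99a-5p. Without rat 17 it was 0.0778, 0.105 and 0.0639 for miR-99b-5p, miR-125b-2-3p and miR-99a-5p, without rat 5 it was 0.136 for miR-125b-2-3p and 0.0972 for miR-99a-5p, without rat 21 it was 0.0514 for miR-99b-5p and 0.0562 for miR-125b-2-3p, and without rat 2 it was 0.123 for miR-125b-2-3p.

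Of the Dlk1-Dio3 cluster, an imprinted group of miRNAs, 1 of 11 tested members fell (median -0.23, 17 listed), a share no larger than the 11.8% of all tested miRNAs. That was miR-411-5p, at 14.0 to 96.4 RPM at BL (median 31.2), 3.76 to 25.8 RPM at W1 (median 15.9) and 6.95 to 16.3 RPM at W4 (median 12.2). The BL value of 96.4 RPM was that of rat 29, and the log2 fold change of -1.19 (SE 0.30, FDR 0.00245, lower in 5 of 6 rats) became -0.95 (FDR 0.0547) without it.

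The remaining large decreases were of single miRNAs. miR-196c-5p, a further HOX cluster miRNA, was at 28.1 RPM at BL (median), 15.6 RPM at W1 and 8.76 RPM at W4, with a log2 fold change of -1.25 (SE 0.28, FDR 0.000876). It differs by 1 mismatch from miR-196a-5p and from miR-196b-5p, whose mean levels were 115 and 230 RPM. Its small count could thus hold reads of either. miR-195-5p, a member of the miR-16 family by its seed, was at 133, 56.1 and 48.8 RPM and fell by 1.12 (SE 0.24, FDR 0.000592). miR-1949 was at 38.9, 23.8 and 21.1 RPM, with a log2 fold change of -1.11 (SE 0.35, FDR 0.0193) that became -0.60 (FDR 0.158) without rat 21.

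Seeds were shared by 5 groups of lower miRNAs, among the 583 of 645 counted miRNAs with a sequence in the RefSeq table. The groups were formed from the called miRNAs, so their counts describe them and do not test a seed. Of all tested miRNAs 11.8% were lower. All 3 counted miRNAs with the seed CCCUGAG, miR-125a-5p, miR-125b-5p and miR-351-5p, fell. Of the 5 with the seed AGCAGCA, miR-195-5p and miR-322-5p fell, while miR-16-5p was at 0.22 (FDR 0.285), miR-15b-5p at -0.22 (FDR 0.491) and miR-497-5p at -0.45 (FDR 0.0634) on the log2 scale. miR-195-5p is within 2 mismatches of miR-16-5p, whose mean level was 100239 RPM, so its small count could hold reads of miR-16-5p.

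Of the 9 with the let-7 seed GAGGUAG, let-7a-5p, let-7b-5p, let-7c-5p and let-7e-5p fell, by 0.70, 0.72, 0.85 and 0.98 on the log2 scale. let-7i-5p, the most abundant of them at 12021 RPM on average, was at -0.07 (FDR 0.799), and miR-98-5p at 0.26 (FDR 0.307). The mature let-7 miRNAs that fell lie within 2 mismatches of one another or of let-7f-5p, so their reads can be exchanged. The other groups were miR-196a-5p and miR-196c-5p (AGGUAGU, 2 of 3 counted) and the miR-450 pair (UUUGCGA). With the seed AGGUAGU, miR-196b-5p was not called (-0.46, FDR 0.0946). Of 83 hairpins with both arms tested, 26 had at least 1 arm called, in 10 both arms passed in the same direction, and in 0 in opposite directions.

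Some liver miRNAs were higher after surgery: of 7 members, 4 rose and 0 fell, with a median log2 fold change of 0.86. miR-802-5p, expressed in hepatocytes, had a lowest, median and highest level of 164, 284 and 324 RPM at BL, 282, 496 and 1720 RPM at W1 and 214, 474 and 850 RPM at W4. The 2 highest values were those of rats 29 and 21 at W1 (1720 and 1453 RPM), and the groups overlapped through rat 17 at W1 and rat 23 at W4. The log2 fold change was 1.22 (SE 0.25, FDR 0.000203), with a rise in 6 of 6 rats when W1 and W4 were averaged.

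The other arm, miR-802-3p, rose by 1.69 (SE 0.33, FDR 0.000107). It stood between 8.63 and 13.2 RPM at BL, between 12.3 and 94.6 RPM at W1 and between 9.94 and 55.0 RPM at W4. miR-122-3p, the minor arm of the main hepatocyte miRNA, was between 153 and 334 RPM at BL (median 227), between 263 and 1258 RPM at W1 (median 492) and between 161 and 825 RPM at W4 (median 419). It rose by 1.10 (SE 0.26, FDR 0.00159, in 5 of 6 rats), and by 0.87 (FDR 0.0141) without rat 29.

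The major arm, miR-122-5p, was at 0.57 (FDR 0.220). miR-192-3p rose by 0.86 (SE 0.27, FDR 0.0207), from a median of 14.7 RPM at BL to 28.5 RPM at W1 and 25.4 RPM at W4, and did not pass without rat 17 (0.82, FDR 0.0736), rat 21 (0.77, FDR 0.0660) or rat 29 (0.86, FDR 0.0547), nor with library size (0.75, FDR 0.0940) or UniSp2 scaling (0.37, FDR 0.401). Its partner miR-192-5p was at 0.32 (FDR 0.227) and miR-194-5p at 0.27 (FDR 0.677). Scaled to UniSp2 reads the liver median was 0.37, and miR-802-3p, miR-802-5p and miR-122-3p were still higher (1.22, 0.72 and 0.60, with FDR 0.00175, 0.0105 and 0.0412).

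The other increases were smaller, and their calls were lost both without rat 29 and with another scaling. miR-340-3p rose by 0.80 (SE 0.27), miR-378b by 0.65 (SE 0.19), miR-362-3p by 0.56 (SE 0.18), miR-223-3p by 0.53 (SE 0.15) and miR-378a-3p by 0.50 (SE 0.16) on the log2 scale. Without rat 29 these were 0.55 (FDR 0.233), 0.57 (FDR 0.0655), 0.43 (FDR 0.145), 0.36 (FDR 0.138) and 0.43 (FDR 0.110). Without rat 21, miR-378b (0.55, FDR 0.0686), miR-362-3p (0.55, FDR 0.0578) and miR-378a-3p (0.44, FDR 0.0842) did not pass either, without rat 17 miR-340-3p (0.78, FDR 0.0749) and miR-362-3p (0.59, FDR 0.0639) did not, without rat 2 these same 2 did not (0.69, FDR 0.130, and 0.57, FDR 0.0621), and without rat 23 miR-340-3p did not (0.81, FDR 0.0825).

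With library size in place of TMM none of these 5 passed (FDR 0.126, 0.0827, 0.119, 0.0827 and 0.127, in the same order). Scaled to UniSp2 reads, the log2 fold change of miR-340-3p was 0.32, that of miR-378b 0.16, of miR-362-3p 0.06, of miR-223-3p 0.03 and of miR-378a-3p -0.0036.

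miR-223-3p, a miRNA of myeloid cells and platelets, stood between 6576 and 15523 RPM at BL (median 10667), between 10695 and 17625 RPM at W1 (median 13810) and between 9923 and 20839 RPM at W4 (median 13597), so the groups overlapped widely. It was the 1 member that rose of the 9 leukocyte and platelet miRNAs, and 0 fell (median 0.15). The 6 red cell miRNAs had log2 fold changes from 0.22 to 0.57 (median 0.38). In edgeR's test 4 of them had an unadjusted p under 0.05, all higher. Beside 3.72% higher of all tested miRNAs, 1 of the 6 rose after adjustment and 0 fell. That was miR-451-5p at 0.57 (SE 0.18, FDR 0.0207), with 31117 to 120479 RPM at BL (median 79413), 63520 to 165594 RPM at W1 (median 89758) and 67751 to 136382 RPM at W4 (median 94879). It did not pass without rat 29 (0.38, FDR 0.194) or rat 23 (0.57, FDR 0.0573), and its call was not kept under 7 of the 17 alternatives. Scaled to UniSp2 reads the red cell list's median was -0.12.

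The part of red cells in these values was not tested. The red cell list made up 200449 to 294734 RPM at BL, 216494 to 371262 RPM at W1 and 233899 to 390506 RPM at W4. miR-301a-3p (0.57) and miR-221-3p (0.48) also rose, in 4 of 6 rats each. The same held for miR-451-5p, whose mean log2 RPM of W1 and W4 was under that of BL in rats 5 and 21.

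In 4 lists no member passed the test in W1 and W4 together against BL. They were the muscle list (5 of 9 tested, median -0.04), the epithelial and endocrine list (8 tested, median 0.09), the miR-29 family (3 of 5 tested, median 0.13) and the miR-17-92 cluster (10 of 11 tested, median 0.26). In edgeR's test 0, 1, 1 and 3 of their members had an unadjusted p under 0.05, and all of these were higher. The highest values among them were those of miR-133a-5p in muscle (0.61, FDR 0.310) and of miR-19a-5p in the miR-17-92 cluster (0.56, FDR 0.0780).

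The direction of small medians depended on the scaling. Scaled to UniSp2 reads, 11 of the 12 lists had a median under 0 and the liver list alone one above it, against 6 and 6 with TMM, and with library size the epithelial and endocrine list turned as well (-0.03).

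miR-133a-3p, the most abundant muscle miRNA here, had a lowest, median and highest level of 400.0, 1957 and 9574 RPM at BL, 453, 1626 and 2474 RPM at W1 and 1374, 2732 and 9270 RPM at W4. The log2 fold change of W1 and W4 together was -0.04 (SE 0.26, FDR 0.921), with 3 rats in each direction. It was -0.58 (FDR 0.0464) when scaled to UniSp2 reads. miR-375-3p, made in pancreatic islets and gut epithelium, stood at a median of 1592, 1868 and 2202 RPM, with a log2 fold change of 0.36 (SE 0.17, FDR 0.128).

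Each week was also compared with BL on its own. Against BL, 21 miRNAs were lower and 5 higher at W1 (6.77% and 1.61% of 310 tested), and 34 were lower and 10 higher at W4 (9.16% and 2.70% of 371). The comparisons share the baseline samples. At W8, 108 were lower and 89 higher (23.1% and 19.0% of 468), in libraries that stood apart in UniSp2 reads. Scaling to UniSp2 reads moved the median over 308 abundant miRNAs at W8 from -0.01 to -2.09. That downward shift fixes in advance that the 108 keep their sign, as all did. Only 4 of the 89 kept theirs, so the increases at W8 are relative to the library. Under that scaling the medians of all 12 lists were under 0 at W8.

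Of the 38 miRNAs that were lower in W1 and W4 together, 38 had a negative sign at W1, 38 at W4 and 37 at W8, with medians of -0.87, -1.03 and -1.52, and 21, 31 and 31 of them passed. Since W1 and W4 entered the choice of these miRNAs, their signs there are fixed in part, and all 3 weeks are set against the same baseline samples. Of the 12 higher miRNAs, all had a positive sign at each week, with medians of 0.61, 0.63 and 1.10, and 5, 7 and 11 passed.

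The miR-322 cluster had 8 of 11 members lower at W1, 11 at W4 and 10 at W8, with medians of -0.92, -1.25 and -1.89. miR-322-3p went from a median of 1185 RPM at W4 to 402 RPM at W8 (245 to 535 RPM), and its log2 fold change against BL was -2.87 (SE 0.22, FDR 7.27e-16). W8 was not tested against W4. miR-351-3p reached 30.0 to 54.4 RPM at W8, with a log2 fold change of -2.46 (SE 0.25, FDR 9.00e-12). As a share of the library, miR-351-5p did not go on: it stood at a median of 174 RPM at W4 and 227 RPM at W8. The log2 fold change of miR-450a-5p against BL was -0.79 at W4 and -0.52 (FDR 0.0893) at W8. Both courses are relative to the library: scaled to UniSp2 reads, the cluster's median was -1.85 at W4 and -3.95 at W8.

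Outside the cluster, miR-1949 stood at a median of 38.9 RPM at BL, 21.1 RPM at W4 and 101 RPM at W8. The log2 fold change of miR-143-5p against BL was -1.24 at W4 and -0.19 (FDR 0.648) at W8. These courses are relative to the library as well. Scaled to UniSp2 reads, the median over 308 abundant miRNAs was -0.57 at W4 and -2.09 at W8.

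All 4 cartilage miRNAs were lower at every week, with medians of -0.94, -0.97 and -1.80. miR-140-3p went on to 26623 to 45628 RPM at W8 and miR-455-5p to 111 to 272 RPM. In the mesenchymal list 3, 6 and 6 members were lower, and at W8 1 was higher. miR-199a-3p fell by 2.80 (SE 0.32, FDR 3.92e-10) at W8 on the log2 scale, to 169 to 401 RPM, and miR-199a-5p of the same hairpin was at -0.34 (FDR 0.284). miR-145-5p was the member that rose at W8, by 0.83 (SE 0.20, FDR 0.000744).

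The miR-125 and miR-99 family had 1, 2 and 6 of 10 members lower (medians -0.43, -0.58 and -0.90), and the Dlk1-Dio3 cluster 1 of 10, 1 of 13 and 8 of 15 (medians -0.29, -0.43 and -1.05). Of all tested miRNAs 6.77%, 9.16% and 23.1% were lower at these weeks, and 1.61%, 2.70% and 19.0% higher. The liver list did not run in one direction. At W1 3 of 6 tested members rose (median 1.11), at W4 3 of 7 (median 0.83), and at W8 3 rose and 2 fell (median 0.30). The arms of miR-192 parted at W8, with miR-192-3p at 1.60 (FDR 2.16e-05) and miR-192-5p at -0.57 (FDR 0.0266).

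miR-802-3p was at 1.97, 1.42 and 1.65 and miR-802-5p at 1.52, 0.92 and 1.06, so that both remained called at each week. Their values at W8 are relative to the library: scaled to UniSp2 reads, the median of the liver list at W8 was -1.75. miR-122-3p was at 1.36, 0.83 and 0.30 and its partner miR-122-5p at 0.82, 0.32 and -1.02, of which the last passed (FDR 0.0170). miR-122-3p had a median of 268 RPM at W8, beside 227 RPM at BL.

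**Figure D4:**
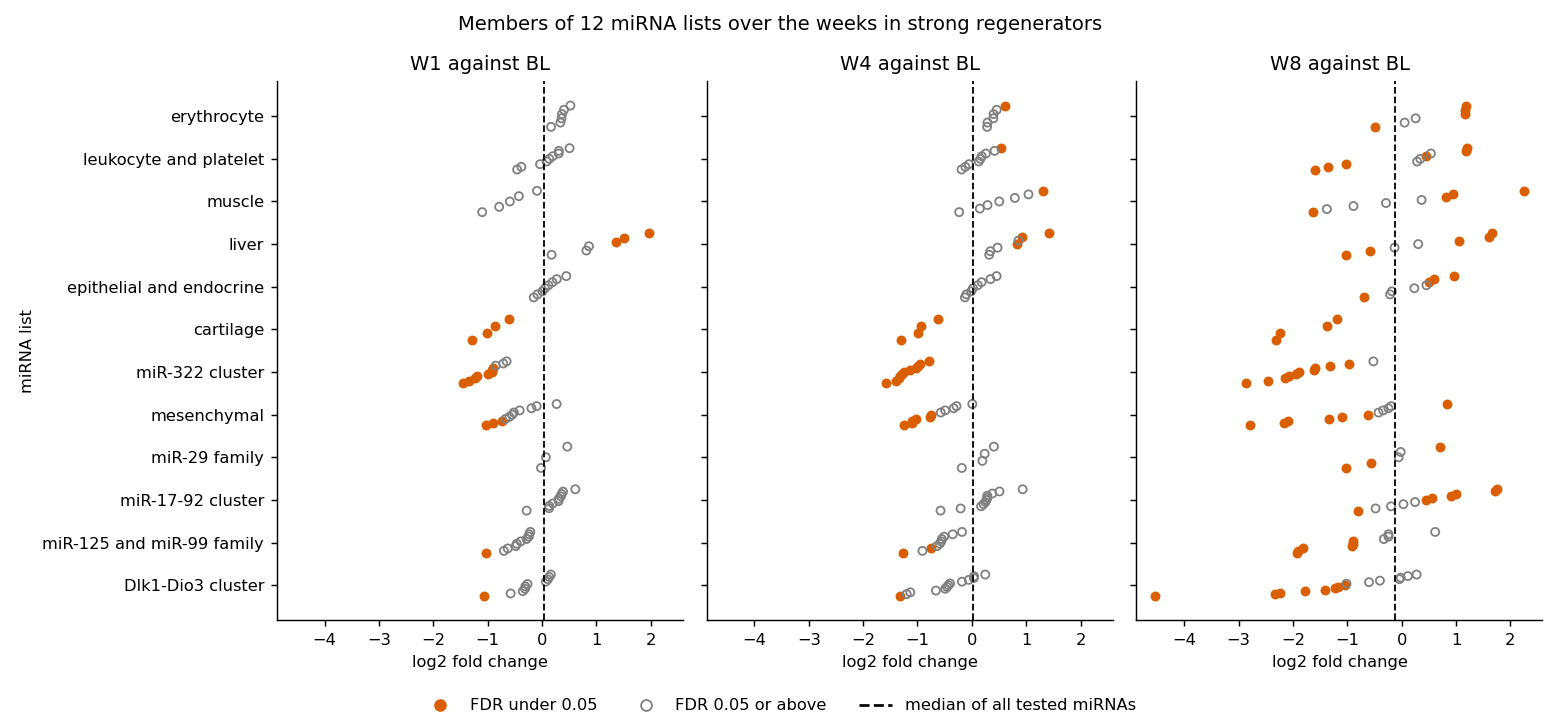
Log2 fold change against BL at W1, W4 and W8 for the tested members of the 12 lists, filled where the FDR was under 0.05, with the median of all tested miRNAs as a dashed line. Cartilage and the miR-322 cluster lie to the left of it at each week, with medians of -1.80 and -1.89 at W8.

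The red cell list had 0 of 6 members higher at W1, 1 at W4 and 3 at W8, with 1 lower at W8 (medians 0.36, 0.40 and 0.71). In the leukocyte and platelet list 0, 1 and 3 of 9 members were higher, and at W8 3 were lower (medians 0.13, 0.16 and 0.34). Of all tested miRNAs 1.61%, 2.70% and 19.0% were higher at these weeks, and 23.1% were lower at W8. Of the leukocyte list, the lymphocyte miRNA miR-150-5p and miR-146a-5p, which dampens inflammatory signalling, fell at W8, by 1.36 and 1.60. miR-142-3p and miR-155-5p rose, by 1.18 and 1.19, while miR-142-5p, the other arm of the miR-142 hairpin, was at -1.02 (FDR 3.10e-05). The arms of miR-144 in the red cell list also parted at W8, with miR-144-3p at -0.49 (FDR 0.0425) and miR-144-5p at 1.19 (FDR 1.10e-05).

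In the miR-17-92 cluster 6 of 11 members were higher and 1 lower at W8, in the miR-29 family 1 of 5 higher and 2 lower, and in the epithelial and endocrine list 3 of 8 higher and 1 lower, beside 19.0% higher and 23.1% lower of all tested miRNAs. At W1 and W4 no member of these 3 lists passed in edgeR's test, though 3 and 2 of the miR-17-92 cluster, 1 and 1 of the miR-29 family and 0 and 1 of the third list had an unadjusted p under 0.05 and were higher. The medians at W1, W4 and W8 were 0.31, 0.27 and 0.45 for miR-17-92, 0.07, 0.22 and -0.06 for miR-29 and 0.09, 0.06 and 0.34 for the epithelial and endocrine list. miR-375-3p was at 0.96 (SE 0.19, FDR 5.30e-05) at W8.

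The 3 largest increases at W8 by the naming rule were those of miR-181c-5p, miR-34b-5p and miR-92a-1-5p. miR-181c-5p was between 377 and 1120 RPM at BL (median 615), 565 and 1600 RPM at W1 (median 730.2), 481 and 1014 RPM at W4 (median 661) and 1600 and 2940 RPM at W8 (median 2191). The lowest W8 value was only just above that of rat 5 at W1, and the log2 fold change against BL was 1.92 (SE 0.25, FDR 8.22e-09). miR-34b-5p, a p53 target, was at 1.78 (SE 0.27) and miR-92a-1-5p at 1.71 (SE 0.42). Scaled to UniSp2 reads these were -0.18, -0.31 and -0.37, none of which passed.

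Between W1 and W4, 1 of 626 tested miRNAs passed (0.160%), and 18 had an unadjusted p under 0.05. That was miR-1b, a muscle miRNA, which rose by 1.64 (SE 0.34, FDR 0.00720) from W1 to W4. Its values at W1 were 24.9, 21.3, 41.7, 42.6, 24.9 and 73.8 RPM in rats 2, 5, 17, 21, 23 and 29, and at W4 129, 47.95, 117, 386, 36.8 and 95.4 RPM.

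Each rat was thus higher at W4 than at W1, though the groups overlapped, and at BL the range of 11.2 to 152 RPM took in all W1 values. The muscle list had 0 of 5 members called at W1 (edgeR, 1 with an unadjusted p under 0.05, median -0.59), 1 of 7 higher at W4 (median 0.50, and -0.13 scaled to UniSp2 reads) and 3 of 8 higher and 1 lower at W8 (median 0.04). Of all tested miRNAs 2.70% were higher at W4, and 19.0% were higher and 23.1% lower at W8. miR-133a-5p was the muscle list member that rose at W4, by 1.31 (FDR 0.0432). The call of miR-1b was absent with limma-voom (1.495, FDR 0.241), with edgeR 4 (1.61, FDR 0.0912), with filterByExpr (1.69, FDR 0.297) and without the pairing by rat (1.76, FDR 0.291).

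Whether the change after surgery differed from that of the 6 weak regenerators was tested in all 48 samples. The scaffold alone was an arm of strong but not of weak regenerators, so treatment and regeneration cannot be told apart. Of 645 miRNAs, 0 (0%) passed an FDR of 0.05 for the difference in edgeR's quasi-likelihood test, with a smallest FDR of 0.552, 27 had an unadjusted p under 0.05, and DESeq2 called 0 as well. Members of the miR-322 cluster and of the cartilage list were lower in weak regenerators too. In the fit of all samples, the weak rats' log2 fold change was -1.38 for miR-351-3p, -1.20 for miR-322-3p, -1.09 for miR-455-5p and -0.80 for miR-140-3p, each of which passed. The difference, strong minus weak, was -0.18 for miR-351-3p (95% interval -0.77 to 0.41) and 0.15 for miR-140-3p (95% interval -0.20 to 0.50).

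Of the 50 miRNAs called in strong regenerators, 42 had the same sign and 12 also passed in weak regenerators. In the weak rats 13 of 382 tested passed in all, and those 13 were lower. The 50 were chosen by their change in strong regenerators, so a smaller change in the weak ones is favoured by the choice.

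The largest point estimates of a difference among the 50 were those of miR-195-5p, let-7 miRNAs, miR-125b-5p and miR-199a-3p, which were near 0 or above it in the weak rats. let-7c-5p had a difference of -1.27 (95% interval -2.01 to -0.52, unadjusted p = 0.00163, FDR 0.552), let-7b-5p one of -1.21, miR-195-5p one of -1.38 (95% interval -2.51 to -0.26), miR-125b-5p one of -1.16 (95% interval -2.08 to -0.23) and miR-199a-3p one of -1.10 (95% interval -1.99 to -0.20). Of the 50, 11 had an unadjusted p under 0.05 for the difference and 0 passed after adjustment.

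The BL means of let-7c-5p, miR-125b-5p and miR-199a-3p were higher in strong than in weak regenerators, a difference that was not tested. let-7c-5p stood at 1577 ± 460.2 RPM in strong and 879 ± 235 RPM in weak regenerators at BL (SD, n = 6 each). miR-125b-5p stood at 2162 ± 1266 and 1187 ± 612 RPM. miR-199a-3p stood at 2498 ± 1833 and 1259 ± 467 RPM, with rat 29 highest in the strong group for miR-125b-5p and miR-199a-3p. For miR-802-3p, which was at 0.57 in the weak rats (FDR 0.393), the difference was 1.09 (SE 0.49).

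**Figure D5:**
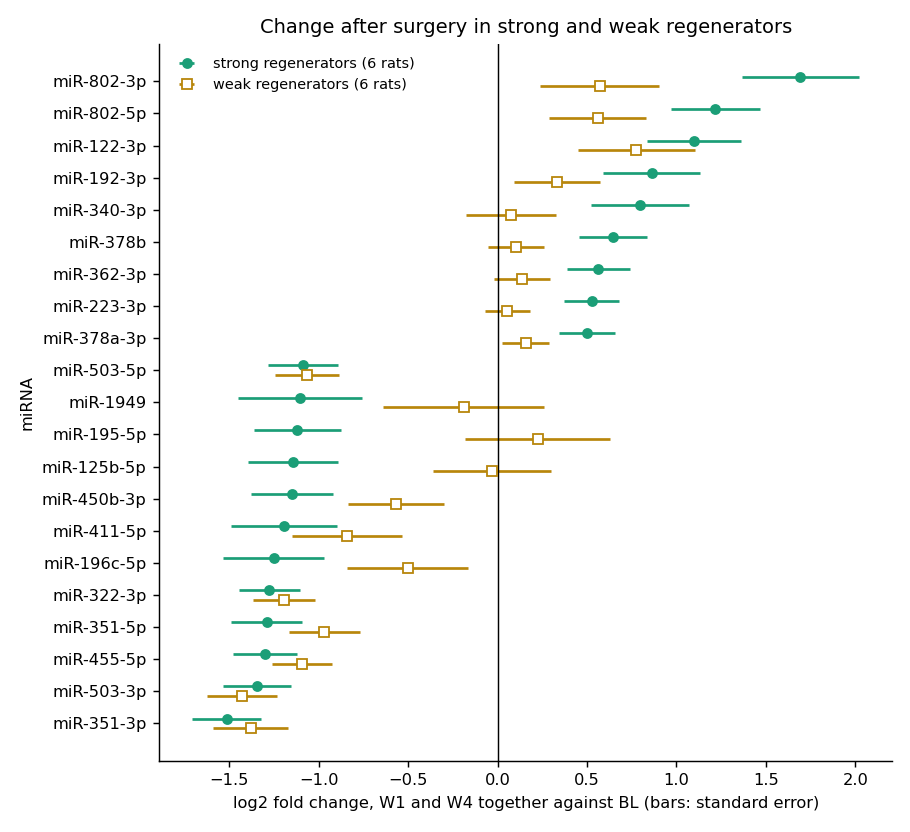
Log2 fold change of W1 and W4 together against BL, with its standard error, in strong regenerators (24-sample fit, circles) and weak regenerators (48-sample fit, squares) for the 12 decreases and 9 increases of the naming rule. miR-322-3p lies at -1.28 and -1.20, miR-125b-5p at -1.15 and -0.03, and no difference between the groups passed an FDR of 0.05.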

How the data were processed

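Small RNA of 48 plasma samples was sequenced after single-adapter ligation, and the 24 samples of strong regenerators were analysed, with the weak ones in 1 test only. The authors trimmed reads with cutadapt 3.3, mapped them with bowtie 1.3.0 and miRDeep2, first to the genome of the rat and next to miRBase, where a mismatch was allowed, and deposited raw read counts of 645 miRNAs and 3 spike-ins, without normalization. The submitters' processing notes name a human build, GRCh38.p12, while the methods name a rat build. BL samples, whose label gives no regeneration group, were assigned by animal.

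Counts were fitted in R 4.3.3 with edgeR 4.0.16 (TMM, the quasi-likelihood method of edgeR 3, Benjamini-Hochberg, FDR under 0.05), with rat and week as factors and an independent filter on mean RPM after DESeq2 (7.97 RPM in W1 and W4 together against BL). The rat pairs the samples, since 4 samples come from each. Deviations from the mean of the week correlated by 0.128 on average in 36 pairs from one rat, though by only -0.018 in rat 5 and 0.011 in rat 17. In 180 other pairs the mean was -0.026. Centring on the week's mean ties that value to the first, so it adds no separate support. Replicates differed beyond counting (chi-square per degree of freedom from 25.3), so none was a copy. The rows of let-7c-2-3p and let-7a-1-3p held identical counts. Without molecular identifiers, reads may not be independent molecules, and counts cover counting error only.

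Named miRNAs had an FDR under 0.05, a mean of at least 10 RPM and a like sign in 5 or more of 6 rats (up to 12 each way, 3 for other comparisons), or were list members or shown by the study (miR-133a-3p, miR-375-3p, miR-802-5p, miR-455-5p). Members and lists were chosen with earlier results of these data known. Single values used exact sign-flip tests over 6 rats, two-sided, in Python 3.11.15 with numpy 2.4.6 and pandas 2.3.3. The fits were tested on simulated data. Alternatives were RLE, library size, UniSp2 scaling, other filters, edgeR 4, DESeq2 1.42.0, limma-voom (limma 3.58.1), no block, 18 samples, summed weeks, thinned counts and each rat left out. Bone volumes were not analysed here.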

Additional observations from a re-analysis of the deposited data

Results flagged for a closer look

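Of 112 sets of 6 rats examined (1 named miRNA at 1 week each), 10 held a highest value whose distance to the next was large against the whole range. Chance flags about 1 in 20 such sets where values are normally distributed. The rule was applied to RPM, whose distribution was not tested, so 10 of 112 is not read as an excess. Of these values, 3 were of rat 29 at BL: 4706 RPM for miR-125b-5p, 6155 RPM for miR-199a-3p and 96.4 RPM for miR-411-5p. Rat 21 stood apart at W1 for miR-351-3p (180 RPM) and at W4 for miR-1b (386 RPM) and miR-34b-5p (61.1 RPM). Rat 5 stood apart for miR-181c-5p at W1 (1600 RPM), miR-503-5p at W4 (84.8 RPM) and miR-340-3p at W8 (75.1 RPM), and rat 17 for miR-1949 at W4 (64.9 RPM).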

How the results depend on the processing

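The count of 50 miRNAs for W1 and W4 together against BL was 38 without the replicate block (paired by rat in the main fit), between 44 and 55 under 9 other settings, 38 to 62 with each rat left out, and 139 with scaling to UniSp2 reads, under which the median of abundant miRNAs moved from 0.04 to -0.46. Of 43 named miRNAs 24 kept their side of the threshold under all 17 alternatives, and miR-378a-3p had -0.0036 with UniSp2. At W1, 26 became 78 with UniSp2 and 16 to 39 with each rat left out (16 without rat 23). At W4, 44 became 28 without a filter, 137 with UniSp2 and 29 to 59 with each rat left out (29 without rat 23). At W8, 197 became 420 with UniSp2 and 164 to 195 with each rat left out. Between W4 and W1, 1 became 2 with 18 samples or DESeq2, 0 with edgeR 4, filterByExpr, limma-voom or no replicate block, and 1 to 6 with each rat left out (6 without rat 17, 3 without rat 2). The difference in miRNAs detected (-4.50) was 2.83 with more than 10 reads and -10.7 with counts thinned to the smallest total (exact p = 0.0625). The causes were not tested. Strong minus weak stayed at 0 under the alternatives run for it, which were library size, no filter, no replicate block and DESeq2. It was not run with UniSp2 scaling or with a rat left out. Weeks were sampled in 6 rats, and miRNAs under the filter were not tested.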
